A study of Homo sapiens with 3 samples.

Results

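The genes described here are the CDK inhibitors CDKN1A, CDKN1B, CDKN1C, CDKN2A, CDKN2B, CDKN2C and CDKN2D and the D-type cyclins CCND1, CCND2 and CCND3, 10 of the 29689 gene symbols listed in the RNAseq data. They were chosen by name as the genes of these families, and all 10 were found in the data. The RNAseq was done on xenograft tumors of SUM-149, a human TNBC cell line, which was grown with Matrigel in the mammary fat pad of female Nu/Nu mice, a strain that lacks a thymus and so mature T cells. There were 3 libraries, 1 each of a vehicle tumor, a tumor from mice given dinaciclib as CDK2 inhibitor (CDK2i) for 10 days and a tumor from mice given EPZ6438 as EZH2 inhibitor (EZH2i) for 10 days. The sample labels name EPZ6438, while the study's text names GSK343 for SUM-149 xenografts, and which was given could not be settled here. Dinaciclib is a multi-CDK inhibitor that also acts on other kinases of the family, including transcriptional CDKs. Every group came from 1 cell line with no replicate, and how many tumors or mice went into a library is not given in the sources used here, "tumor" below standing for the material of 1 library. No p-value was computed and each difference below compares those libraries, not the treatments.

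Cyclin-dependent kinases drive the cell cycle when bound to a cyclin, and D-type cyclins with CDK4 or CDK6 begin the phosphorylation of RB that frees E2F and opens the way from G1 to S phase. INK4 inhibitors bind CDK4 and CDK6 and keep D-type cyclins off, while CIP/KIP inhibitors bind cyclin-CDK complexes and block CDK2 above all. The levels of these proteins are set by transcription and also by ubiquitin-dependent turnover, which RNAseq does not measure.

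Levels are FPKM, fragments relative to gene length and library size, which the authors deposited on the log2 scale with −9 where the FPKM was apparently 0. A log2 change is the log2 FPKM of one tumor minus that of the other. A gene was called different when it differed by more than 2-fold and at least 1 tumor of the pair exceeded log2 FPKM 3, thresholds the study used beside a p-value. In place of a replicate error, the spread of a gene is the SD of the EZH2i minus CDK2i differences over the 200 genes nearest to it in mean expression, which holds drug effects as well as noise. Of the 10 genes, 6 were expressed, their mean log2 FPKM being above 1 with none of the 3 values at −9. They are CDKN1A, CDKN1B, CDKN2C, CDKN2D, CCND1 and CCND3. The other 4 genes, CDKN1C, CDKN2A, CDKN2B and CCND2, were under 1 FPKM in all 3 tumors and could not be called in any comparison.

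**Figure D1:**
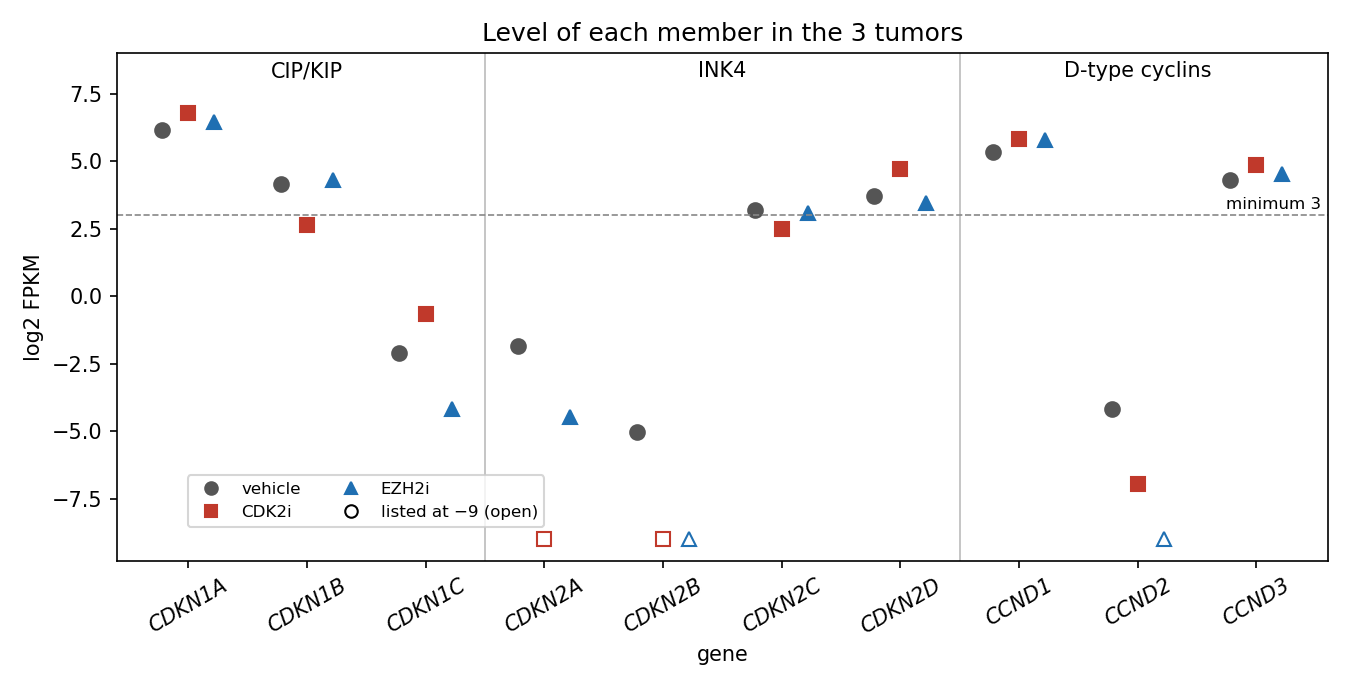
Log2 FPKM of the 10 genes (y axis) by gene and family (x axis), with 1 point per tumor: circles for vehicle, squares for CDK2i, triangles for EZH2i, and open symbols for values listed at −9. CDKN1B was below the minimum of log2 FPKM 3 (dashed line) in the CDK2i tumor alone, and the 4 weak genes lie far below it in all tumors.

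The promoters of 3 genes are shown here, since CDKN1A had the highest level of the group and CDKN1B and CDKN2D were the genes called in a comparison. Each is the 250 bases before the RefSeq start of the gene, placed on GRCh37 by a single exact match and printed from 5′ to 3′ on the strand of the gene. Capitals mark the GC box (GGGCGG, or CCGCCC on the other strand) and the CCAAT box (CCAAT, or ATTGG on the other strand). The CDKN1A window is chr6:36646241-36646490 on the plus strand, the CDKN1B window chr12:12870052-12870301 on the plus strand, and the CDKN2D window chr19:10679656-10679905 on the minus strand.
CDKN1A: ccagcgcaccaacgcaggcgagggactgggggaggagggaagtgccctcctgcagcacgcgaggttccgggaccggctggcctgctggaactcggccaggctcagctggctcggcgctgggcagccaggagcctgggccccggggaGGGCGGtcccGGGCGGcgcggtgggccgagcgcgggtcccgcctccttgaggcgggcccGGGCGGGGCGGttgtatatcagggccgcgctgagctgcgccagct
CDKN1B: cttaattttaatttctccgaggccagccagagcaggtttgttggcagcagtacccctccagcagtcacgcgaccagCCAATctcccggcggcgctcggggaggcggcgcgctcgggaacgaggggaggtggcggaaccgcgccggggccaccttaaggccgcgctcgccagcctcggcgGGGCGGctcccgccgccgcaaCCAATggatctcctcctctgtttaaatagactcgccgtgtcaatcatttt
CDKN2D: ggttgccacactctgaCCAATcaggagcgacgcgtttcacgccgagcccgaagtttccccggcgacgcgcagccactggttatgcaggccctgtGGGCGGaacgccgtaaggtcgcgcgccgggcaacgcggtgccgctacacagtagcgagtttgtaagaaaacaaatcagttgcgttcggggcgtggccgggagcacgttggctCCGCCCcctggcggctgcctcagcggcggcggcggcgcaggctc
The CDKN1A window holds 4 GC boxes, of which the last 2, at 45 and 40 bases before the start, overlap. The CDKN1B window holds 1 GC box and 2 CCAAT boxes, the nearer at 50 bases before the start, and the CDKN2D window 2 GC boxes and 1 CCAAT box. Over 34788 RefSeq windows of this length, 42.58% hold a GC box and 32.02% a CCAAT box. The CpG count was 27 in CDKN1A, 27 in CDKN1B and 33 in CDKN2D, against a median of 11. The TATA box letters TATAAA, found in 10.77% of windows, and the E2F letters TTTCCCGC, TTTGGCGC and TTTCGCGC, found in 2.314%, do not occur in these 3 windows. All motifs were searched on both strands. Of the 10 genes, 7 had an entry in the RefSeq promoter table, and CDKN1C, CCND1 and CCND2 had none.

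Among CIP/KIP genes, CDKN1B was 2.86-fold lower with CDK2i than with vehicle, while CDKN1A was 1.53-fold higher and was not called. In the EZH2i tumor both lay within a fold of 1.22 of vehicle. CDKN1B encodes p27, which binds cyclin E-CDK2 and holds cells in G1 (GRCh37 chr12:12838432-12875303, plus strand). Its level was 17.9 (vehicle), 6.25 (CDK2i) and 19.8 FPKM (EZH2i). The CDK2i tumor is thus the low one, and vehicle and EZH2i lie close together. The log2 change was −1.52 in CDK2i, against a spread of 0.84. Of the 11109 expressed genes, 3.83% had a lower change. In EZH2i the log2 change was 0.14, and it turned to −0.07 once libraries were centred on the median gene and to −0.18 with the trend over GC content and length removed. EZH2i against CDK2i, CDKN1B was 3.16-fold higher.
GPR19, a gene on the opposite strand, overlaps CDKN1B in the GENCODE coordinates used here, where CDKN1B begins at 12838432 and GPR19 ends at 12849141. The RefSeq promoter window of CDKN1B ends at 12870301, past the end of GPR19. The RefSeq transcript that begins after this window thus does not overlap GPR19. GPR19 was at 3.1, 1.85 and 3.29 FPKM in vehicle, CDK2i and EZH2i. The authors' annotation, and whether their counting used strand, are not given in the sources used here.

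CDKN1A encodes p21, the CDK inhibitor that p53 induces (GRCh37 chr6:36644237-36655114, plus strand). It was the most expressed of the 10 genes in each tumor, at 71.7 FPKM in the vehicle library, 109 after CDK2i and 87.4 after EZH2i. Vehicle was the lowest of the 3, but as deposited the log2 changes of 0.61 with CDK2i and 0.29 with EZH2i were below the spread of 0.70. The CDK2i change was 0.78, above the spread, with centred libraries. With the GC and length trend removed, the EZH2i change was 0.75. The spread was taken on deposited values, which still hold this trend, so it is no measure for that value. In CDK2i, 8.79% of expressed genes had a higher change than CDKN1A.

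CDKN1C encodes p57, an imprinted inhibitor of the same family on chromosome 11 (GRCh37 chr11:2904443-2907005, minus strand). Its level was 0.232 (vehicle), 0.637 (CDK2i) and 0.0557 FPKM (EZH2i), which correspond to about 8, 25 and 2 fragments. The order was CDK2i, vehicle, EZH2i. The ratio of CDK2i to vehicle was 2.74 with a 95% counting interval of 1.2 to 7.03, and that of EZH2i to vehicle 0.239 with an interval of 0.0248 to 1.2. The EZH2i to CDK2i ratio was 0.0874 with an interval of 0.0100 to 0.350. These intervals cover counting error only, and PCR copies of 1 molecule are not independent.

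The INK4 genes were split between an expressed pair and a pair near zero. CDKN2D was 1.97-fold higher in the CDK2i tumor than in vehicle, just inside the 2-fold threshold, and CDKN2C lower. At the gene lengths used here, CDKN2A and CDKN2B had at most 6 fragments in any tumor. CDKN2D encodes p19INK4D (GRCh37 chr19:10677136-10679735, minus strand). It was at 13.1 FPKM in the vehicle library, 25.8 after CDK2i and 10.8 after EZH2i. The CDK2i tumor stands above the other two, which lie close together. The log2 change was 0.98 with CDK2i and −0.27 with EZH2i, against a spread of 0.68, and 3.03% of expressed genes had a higher change in CDK2i. EZH2i against CDK2i, CDKN2D was 2.38-fold lower, and this was the other call besides CDKN1B. With the GC and length trend removed the log2 change of EZH2i against CDK2i was −0.60 in place of −1.25, the call was lost, and that of EZH2i against vehicle was 0.44. CDKN2D has a GC content of 61.2%, higher than 87.8% of expressed genes.

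CDKN2C encodes p18INK4C (GRCh37 chr1:51426417-51440306, plus strand). It was at 9.21 (vehicle), 5.61 (CDK2i) and 8.41 FPKM (EZH2i), so CDK2i was the low tumor again. The log2 changes of −0.71 and −0.13 were below the spread of 0.79 as deposited. With libraries scaled to equal sums without ribosomal protein and mitochondrially encoded genes, the CDK2i change was −0.86, past the spread. CDKN1B and CDKN2C were the expressed members lower in CDK2i than in both other tumors, under all settings tried for that comparison with vehicle.

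CDKN2A, whose symbol pools the transcripts of p16INK4A, an inhibitor of CDK4 and CDK6, and of p14ARF, which stabilizes p53, lies beside CDKN2B, the gene of p15INK4B, on chromosome 9. The GRCh37 coordinates are chr9:21967751-21995300 for CDKN2A and chr9:22002902-22009304 for CDKN2B, both on the minus strand. CDKN2A was at 0.279 FPKM in the vehicle library, 0 after CDK2i and 0.0445 after EZH2i, about 6, 0 and 1 fragments. CDKN2B was at 0.0305 FPKM in vehicle and listed at 0 in both treated tumors, about 2, 0 and 0 fragments. All values of these genes thus stand on a handful of fragments. CDKN2A in CDK2i was at least 2.28-fold lower than in vehicle at a floor of 3 fragments per library, a bound that leaves out the counting error of the 6 vehicle fragments. With it, the interval of the ratio ran from 0 to 0.745. Its EZH2i to vehicle ratio was 0.160 with a counting interval of 0.00347 to 1.32. For CDKN2B no fold is given, since all values lie at or below that floor. EZH2 is the methyltransferase of the Polycomb complex for which this locus is a known target in other cells. Neither gene was higher in the EZH2i tumor than in vehicle, at about 1 against 6 and 0 against 2 fragments. An effect of the inhibitor on this locus was not tested.

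None of the D-type cyclins was called in any comparison. CCND1 encodes cyclin D1, the main D-type cyclin of breast epithelium (GRCh37 chr11:69455924-69469242, plus strand). It was at 40.8 (vehicle), 55.8 (CDK2i) and 55.5 FPKM (EZH2i). The treated tumors were close to each other and both above vehicle, with log2 changes of 0.45 with CDK2i and 0.45 with EZH2i, below the spread of 0.67. CCND1 stayed above vehicle in both treated tumors under all 6 other settings, between 0.31 and 0.62 in CDK2i and between 0.23 and 0.69 in EZH2i. ORAOV1, which overlaps the 3′ side of CCND1 on the opposite strand, was at 13.2, 5.16 and 15.9 FPKM and was lower in CDK2i.

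CCND3, which encodes cyclin D3 (GRCh37 chr6:41902672-42018095, minus strand), was at 19.8 FPKM in the vehicle library, 29.0 after CDK2i and 23.0 after EZH2i. Its log2 changes of 0.55 and 0.21 were again below its spread of 0.66 as deposited. With centred libraries that in CDK2i was 0.72, above the spread, and that in EZH2i was −0.00. CCND2, which encodes cyclin D2 (GRCh37 chr12:4378937-4414519, plus strand), was at 0.0552 (vehicle), 0.00806 (CDK2i) and 0 FPKM (EZH2i), about 6, 1 and 0 fragments. Its ratio of CDK2i to vehicle was 0.146 with a counting interval of 0.00318 to 1.2, and in EZH2i it was at least 2.09-fold lower than in vehicle at the floor of 3 fragments, again without the error of the vehicle count. With that error the interval of the EZH2i ratio ran from 0 to 0.814. SUM-149 tumors thus held CCND1 and CCND3 RNA with nearly no CCND2.

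Ratios within a library do not depend on the scaling between libraries. Over the summed FPKM of the CIP/KIP genes, CDKN1B made up 19.9% in vehicle, 5.38% in CDK2i and 18.4% in EZH2i, and CDKN1A took 79.8%, 94.1% and 81.5%. Over the INK4 genes, CDKN2D made up 57.9%, 82.1% and 56.2%, and CDKN2C 40.8%, 17.9% and 43.6%. In both inhibitor families the CDK2i tumor was the one that stood apart. The D-type cyclins held their proportions in comparison, with CCND1 at 67.2% in vehicle, 65.8% in CDK2i and 70.7% in EZH2i.

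**Figure D2:**
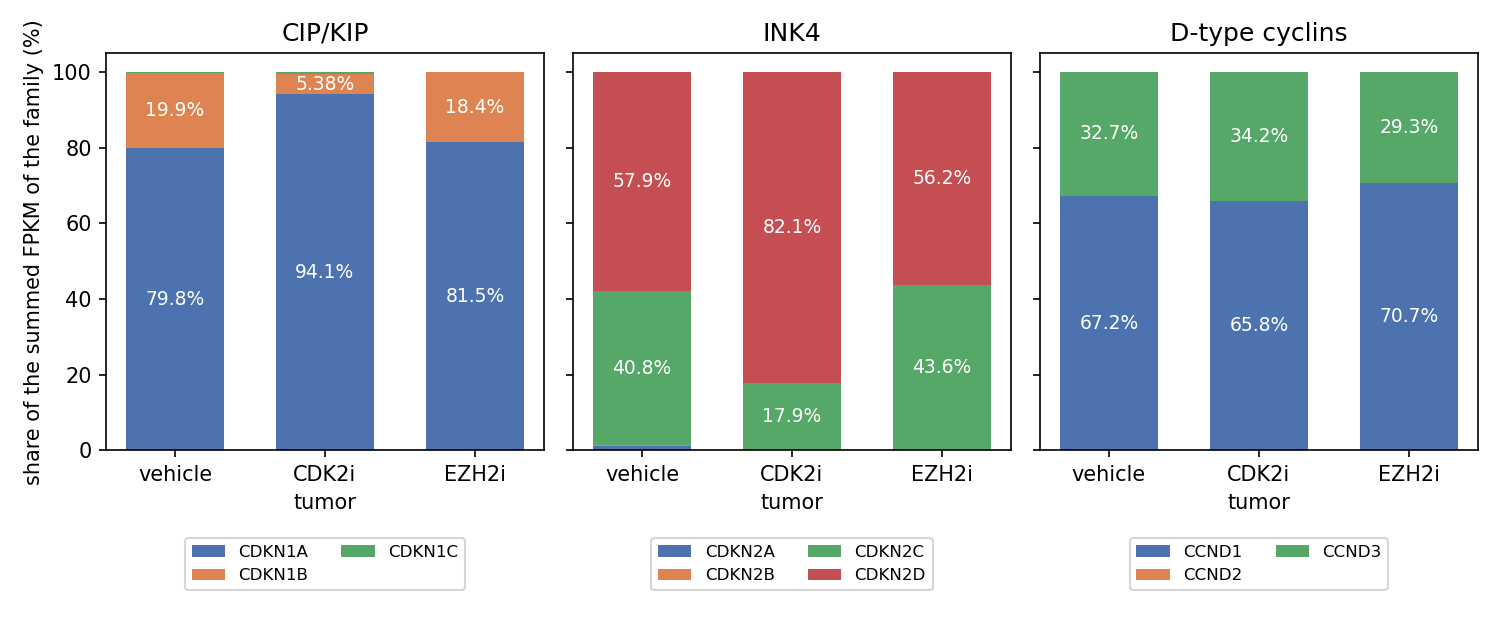
Share of each gene in the summed FPKM of its family (y axis, percent) in the vehicle, CDK2i and EZH2i tumors (x axis), as stacked bars with 1 panel per family. In CDK2i the CDKN1B share was 5.38% and the CDKN2D share was 82.1%, while CCND1 was between 65.8% and 70.7% in all tumors.

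CDKN1A stood 4.01-fold above CDKN1B in vehicle, 17.5-fold in CDK2i and 4.42-fold in EZH2i. The ratio of CDKN2D to CDKN2C was 1.42 with vehicle, 4.59 with CDK2i and 1.29 with EZH2i. CDKN1B, which lay above CDKN2D in vehicle and EZH2i, lay below it in CDK2i, where the CDKN2D to CDKN1B ratio was 4.13. With the GC and length trend removed, the CDKN1A to CDKN1B ratio was 17.7 in CDK2i and 7.59 in EZH2i, and the CDKN2D to CDKN1B ratio 4.06 in CDK2i and 1.12 in EZH2i (0.548 as deposited), so that the order of these genes in EZH2i turned. The summed FPKM of all 7 inhibitors over that of the 3 D-type cyclins was 1.85 with vehicle, 1.74 with CDK2i and 1.61 with EZH2i. That of INK4 genes alone over D-type cyclins was 0.373, 0.370 and 0.246. In all 3 tumors the order by level began with CDKN1A, CCND1 and CCND3. CCND3 was 1.11-fold above CDKN1B in vehicle and 1.16-fold in EZH2i. The spread, taken between libraries, does not measure such differences between genes of 1 library.

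Of the 6 genes that could be called in CDK2i against vehicle, 1 was lower (CDKN1B) and 0 higher, against a background of 8.07% of 6632 genes called lower and 3.27% higher. In EZH2i against vehicle 0 of 6 were called, where 13.4% of 7414 genes were, 8.93% higher and 4.42% lower. EZH2i against CDK2i, 1 was higher (CDKN1B) and 1 lower (CDKN2D), with 24.1% of 7394 genes called, 17.5% higher and 6.52% lower. With so few genes these counts lie near their background and single out nothing about the group. The median log2 change of the 6 expressed members was 0.50 in CDK2i and 0.18 in EZH2i, against −0.11 and 0.19 over all 11109 expressed genes. In CDK2i 4 of the 6 were above 0, where 41.9% of all genes were. In EZH2i 4 of 6 were, against 61.5%. CDK2i and EZH2i are compared with the same vehicle library, so that its errors enter both.

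**Figure D3:**
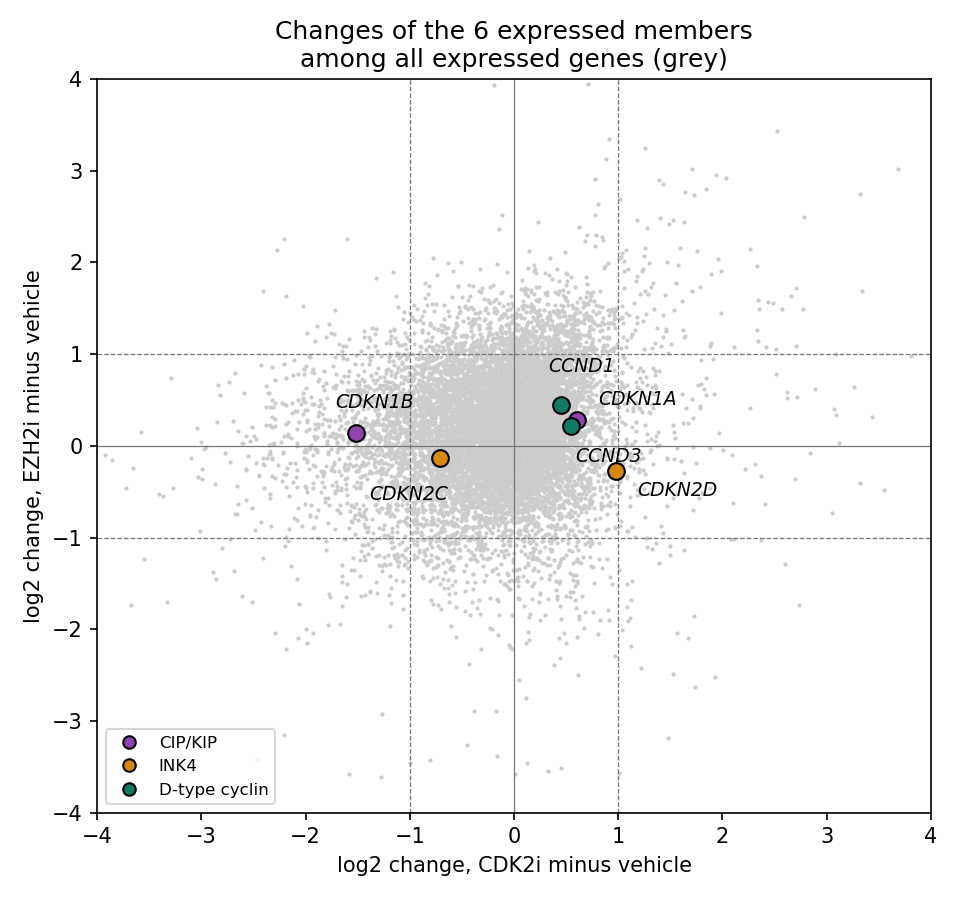
Log2 change in CDK2i (x axis) against that in EZH2i (y axis), both relative to vehicle, for the 6 expressed members (coloured by family) over 11103 of 11109 expressed genes in grey, 6 lying beyond the axes. CDKN1B is the member left of the dashed line at a fold of 2, CDKN2D sits just inside it on the right, and no member is past the lines on the EZH2i axis.

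**Figure D4:**
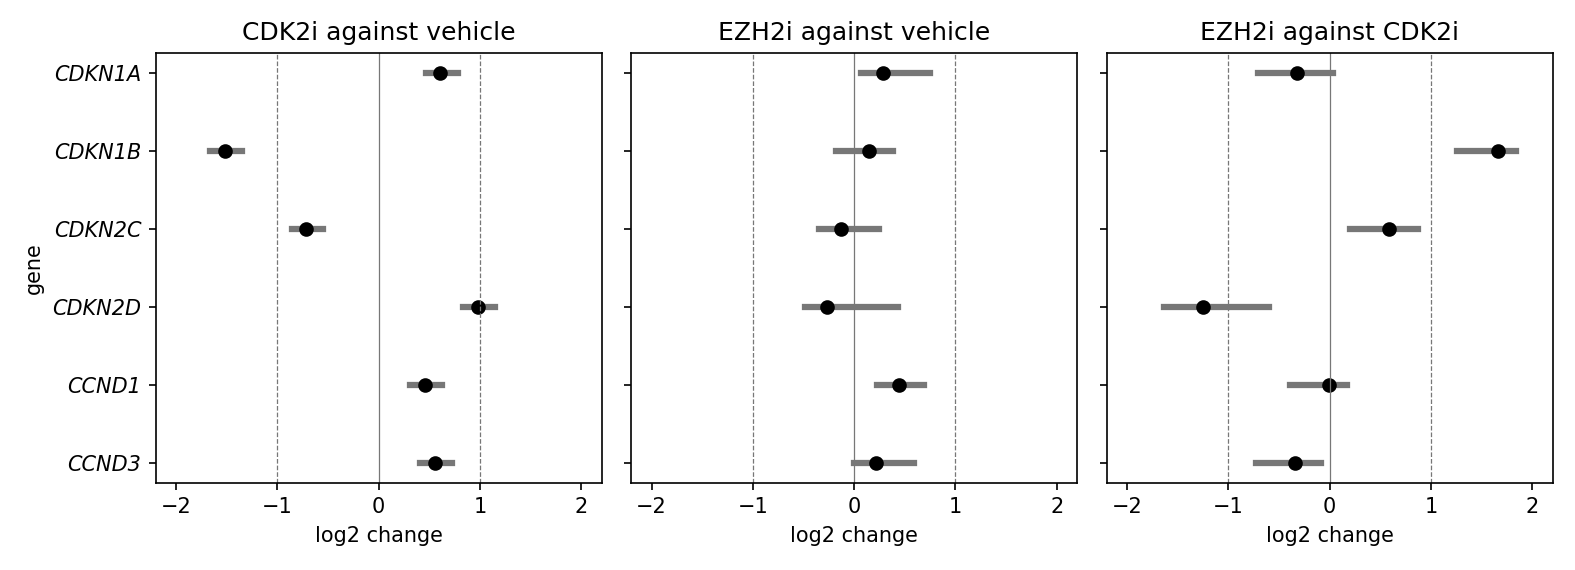
Log2 change (x axis) of each expressed member (y axis) in the 3 comparisons, with the deposited values as points and the lowest to highest value over 6 other settings as bars. The CDKN1B bar in CDK2i runs from −1.66 to −1.35 and lies past the dashed line at a fold of 2, whereas the EZH2i bars of CDKN1B, CDKN2C, CDKN2D and CCND3 reach both sides of 0.

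The scaling between libraries bears on the direction of small changes. The median gene moved from −0.11 to 0.06 in CDK2i and from 0.19 to −0.02 in EZH2i when each library was centred. Relative to the median gene, the CDK2i change was 0.72 for CDKN1A, 1.09 for CDKN2D, 0.66 for CCND3 and −0.60 for CDKN2C. In EZH2i all 6 lay between −0.46 and 0.25 relative to it. EZH2i changes also ran with gene composition, and over 10203 genes, which are not independent, the Spearman correlation was −0.571 for GC content and 0.452 for length. In CDK2i it was 0.0360 and 0.0915. Its part in the EZH2i values was not tested beyond the removal of the trend.

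Among 7572 genes searched, those with the pair of changes nearest to CDKN1B were CCDC137, at −1.48 with CDK2i and 0.13 with EZH2i, and TTC9C, at −1.54 and 0.18. For CDKN2D they were ERV3-1, at 1.00 and −0.30, and NFIL3, at 0.98 and −0.33. The distances were 0.0376 and 0.0419 for CDKN1B and 0.0341 and 0.0571 for CDKN2D, on the log2 scale over the changes in 2 comparisons. This likeness rests on 3 libraries, and 29 and 32 genes lay within 0.2 of CDKN1B and CDKN2D.

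The region around CDKN2A and CDKN2B was looked at after their low values were seen, over the protein-coding genes listed in the data with centres within 2.0 Mb. Apart from CDKN2B the nearest gene was MTAP. It encodes an enzyme of methionine salvage and was at 0.00973 FPKM in vehicle, about 1 fragment, and listed at 0 in both treated tumors. DMRTA1 was at 0, 0 and 0.0248 FPKM and ELAVL2 at 0.0470, 0.0137 and 0.0150. Further along on the MTAP side, KLHL9 was at 5.86, 3.09 and 11.3 FPKM, FOCAD at 4.34, 8.04 and 6.90, and MLLT3 at 1.99, 1.22 and 2.49. Of 8 neighbours of CDKN2A, CDKN2B among them, 5 were below 1 FPKM in all tumors and 3 at or above it in all, and PTPLAD2 was the low gene among the expressed ones. The genes from MTAP through ELAVL2 were thus low as a run, with the expressed genes on the MTAP side. The cause of these low values was not tested.

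**Figure D5:**
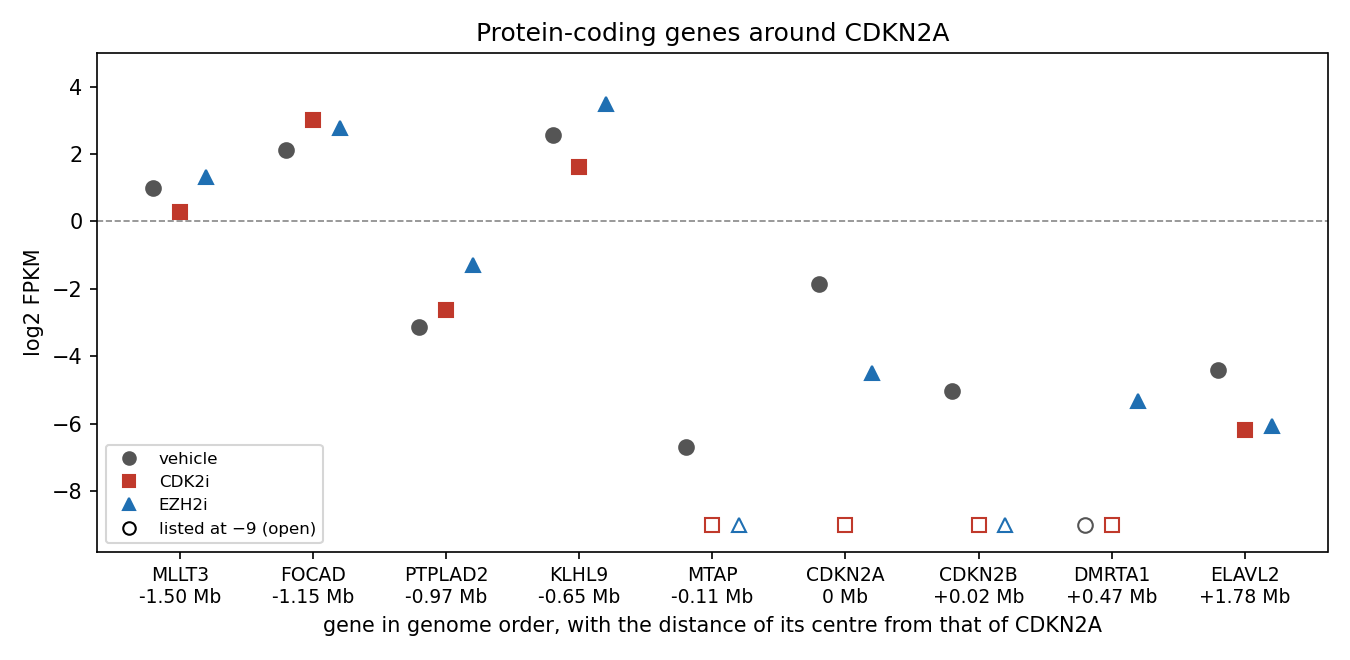
Log2 FPKM (y axis) of CDKN2A, CDKN2B and the other protein-coding genes around them in genome order (x axis, with the distance of each centre from that of CDKN2A in Mb), with 1 symbol per tumor and open symbols for values listed at −9. KLHL9, FOCAD and MLLT3 lie above log2 FPKM 0 in all tumors, and the genes from MTAP to ELAVL2 below it.

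Of 8 kinases and cyclins that partner them, CDK6, a kinase for D-type cyclins, was at 2.84 FPKM in the vehicle library, 4.62 after CDK2i and 13.9 after EZH2i, and CDK4 at 23.0, 28.7 and 22.3. CCNA2, which encodes cyclin A2 of S phase and G2, was at 12.4, 11.8 and 29.3 FPKM. In EZH2i 4 of 7 that could be called were higher, namely CDK6, CCNA2, CDK1 and CCNB1, and in CDK2i 0 of 4 were called. The calls of CDK1 and CCNB1 were lost with centred libraries (0.88 and 0.81) and with the trend removed (0.91 and 0.95). The list median was 1.02 in EZH2i and −0.08 in CDK2i, the latter turning positive in 3 of the settings. D-type cyclin RNA over that of CDK4 and CDK6 together was 2.35 with vehicle, 2.54 with CDK2i and 2.17 with EZH2i.

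Of the RB and E2F family, RB1, the pocket protein that D-type cyclin kinases phosphorylate, was at 3.79, 6.05 and 9.90 FPKM in vehicle, CDK2i and EZH2i, and its relative RBL2 at 5.74, 7.75 and 10.0. In EZH2i 2 of 8 were called higher, RB1 and E2F3, and in CDK2i 0 of 3. With the trend removed both calls were lost (0.89 and 0.84), and with centred libraries that of E2F3 (0.87). Of 13 E2F target genes, 1 of 11 was lower in CDK2i, CDT1, which licenses replication origins (log2 change −1.23), and 1 of 13 higher in EZH2i, RRM2 of ribonucleotide reductase (1.32). The medians of E2F targets were −0.08 in CDK2i and 0.50 in EZH2i. The 10 proliferation genes, such as the mitotic kinase AURKA and the kinetochore gene CENPF, had a median of −0.47 in CDK2i and 1.04 in EZH2i, with 1 of 7 lower in CDK2i (AURKA, −2.01) and 5 of 9 higher in EZH2i. With the trend removed, TOP2A (0.77), BUB1 (0.94), CENPF (0.92) and KIF11 (0.92) lost the call and MKI67 (1.12) kept it. In bulk samples fewer cells of a type and less RNA per cell cannot be told apart.

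CDKN1A is a target of p53. Of 21 other p53 targets 17 were expressed, with a median of −0.28 in CDK2i and 0.22 in EZH2i, and CDKN1A at 0.61 lay above the median in CDK2i. In CDK2i 1 of 10 was higher, BTG2, an antiproliferative gene (1.07), and 1 lower, PHLDA3, a repressor of AKT (−1.57). SESN1, a stress gene too weak to be called there, was at 2.75, 0.655 and 4.75 FPKM. In EZH2i 1 of 12 was higher, TNFRSF10B, a death receptor (1.02), which lost the call with centred libraries (0.81) and with the trend removed (0.98). BTG2 lost it with equal sums without ribosomal protein and mitochondrially encoded genes (0.92).

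Genes of the protein turnover of the members were counted too, since p27 and cyclin D1 are removed through ubiquitin ligases. In CDK2i 1 of 6 was lower, FBXO31, a ligase subunit for cyclin D1 (−1.40), in EZH2i 0 of 9 were called, and GSK3B, the kinase that marks cyclin D1 for export and turnover, was at 5.70, 6.70 and 11 FPKM. SKP2, the subunit that recognizes p27, was at 4.79, 5.17 and 8.11 FPKM, and the RNA ratio of CDKN1B to SKP2 was 3.74, 1.21 and 2.44. Of 22 transcription factors and signalling genes known to act on member genes, 4 of 12 were higher in CDK2i. These were EGR1, ID1, KLF6 and MYC, with log2 changes of 2.60, 1.72, 1.38 and 1.2. MYC represses CDKN1A and CDKN2B in other settings, and its level was 79.7, 182 and 65.5 FPKM in vehicle, CDK2i and EZH2i. In EZH2i 3 of 17 were higher (TP63, SMAD3 and ETS1) and EGR1 was lower, at −1.29. The higher calls were all lost with the trend removed, at 0.76, 0.90 and 1.00 (just under the threshold), and those of TP63 and SMAD3 also with centred libraries, at 0.92 and 0.83.

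Of 8 genes listed for Polycomb control of the INK4 locus, which are complex subunits and KDM6B, a demethylase that opposes them, 1 of 7 was higher in EZH2i, BMI1 (1.03), while SUZ12, a core subunit beside EZH2, was at 0.92. With centred libraries BMI1 was at 0.82 and with the trend removed at 0.71, and the call was lost. In CDK2i 0 of 3 were called. Of 8 expressed genes next to the member loci, 2 of 7 were higher in CDK2i, PHLDA2 (2.42), an imprinted gene near CDKN1C, and ANO1 (1.09), and 2 lower, FADD (−3.58) and ORAOV1 (−1.35), all but PHLDA2 lying near CCND1 on chromosome 11. In EZH2i 1 of 7 was higher, PHLDA2 (1.08). The call of ANO1 was lost with equal sums without ribosomal protein and mitochondrially encoded genes (0.94) and that of PHLDA2 in EZH2i with centred libraries (0.86). All lists were chosen with earlier results of these data known, and their values are descriptions.

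The recovered depth was 16.8 to 19.1 M fragments per library. Basal keratins were high in every tumor, with KRT5 at 1873, 4217 and 1653 FPKM in vehicle, CDK2i and EZH2i. ESR1 and PGR were near zero, at most 1.10 FPKM, while ERBB2, the HER2 gene, was at 30.4, 30.2 and 21.9 FPKM. All 8 epithelial markers were expressed, with a summed level of 5279, 12406 and 4971 FPKM. Most of that sum was KRT5, KRT14 (2458, 6269 and 2541 FPKM) and KRT17 (620, 1519 and 435 FPKM). The median log2 change of the 8 was 0.49 in CDK2i and 0.15 in EZH2i, with 8 and 5 of them above 0. The 6 macrophage markers summed to 11.4, 11.1 and 5.30 FPKM with 1, 2 and 3 of them at 0, and the 7 fibroblast markers to 24.5, 38.4 and 28.9 with none at 0. The 3 endothelial markers listed summed to under 1 FPKM in each tumor and the 3 lymphocyte markers to at most 0.0619, with 2, 0 and 3 at 0. Host cells of these xenografts are of mouse, while the reads were aligned to human hg19. The macrophage, fibroblast, endothelial and lymphocyte values thus do not measure the host tissue. The part of the markers in the differences of the members was not tested.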

How the data were processed

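The 3 RNAseq libraries of SUM-149 xenografts, 1 per group, were compared by group as the sample labels name them. The authors deposited log2 FPKM for 29689 gene symbols, made from reads of NOVOGENE with CASAVA and STAR on hg19 per the submitters' processing notes, with a value of −9 that was read as an FPKM of 0. The counting tool, the annotation and the strand setting are not given in the sources used here. Differences of log2 FPKM were taken as deposited, with no pseudocount and no p-value, since 1 library per group gives no error. Genes counted as expressed where the mean log2 FPKM exceeded 1 and none of the values was −9. The depth of each library was read from the first step on which FPKM times exon length piled up over genes. That step was taken as 1 fragment, with exon lengths of GENCODE 44 on GRCh37. For the weak members, gene lengths were then searched that made the fragment numbers whole within 0.02, a tolerance that widened at higher counts. The lowest nonzero number is whole by this search, so whole fragments are fitted and not a check. Fragment numbers of weak genes used the implied gene length nearest the longest annotated transcript, and for CDKN2A and CDKN2B other lengths also gave whole fragments. Fragments have exact Poisson intervals (95%), and ratios an exact binomial interval of the counts. Symbols were matched to GENCODE, 1492 of 20344 through RefSeq synonyms, and 92.6% of expressed genes had a GC content and a length. Promoters came from the RefSeq table. The members and gene lists were chosen with earlier results of these data known. All members were named. Of other genes, the text names those with the nearest pair of changes and the pair with the largest mean change in each pathway list. Genes whose calls the text spells out, the genes around CDKN2A, the overlapping genes, the cell type markers given by name, and SKP2, CDK4 and MYC were added after their values were seen. Alternatives were other scalings, pseudocounts of 0.1 and 1, a GC and length correction, folds of 1.5 and 3 and other minimums. Python 3.11.15, numpy 2.4.6, pandas 2.3.3, scipy 1.17.1 and matplotlib 3.10.9 were used, and the scripts were tested on simulated data.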

Additional observations from a re-analysis of the deposited data

How the results depend on the processing

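With 1 library per group no replicate could be left out. No paired analysis was possible because each group holds 1 library. Calls of the members moved with the thresholds. In CDK2i against vehicle the count was 1, and it was 2 with centred libraries, 2 with equal summed FPKM and 2 with the GC and length trend removed, where CDKN2D joined at log2 changes of 1.15, 1.13 and 1.04. It was 4 at a fold of 1.5, 0 at a fold of 3, 5 with no minimum and 0 at a minimum of log2 FPKM 5. In EZH2i against vehicle it was 0, and 4 with no minimum. In EZH2i against CDK2i it was 2, and 1 with the trend removed, 1 at a fold of 3, 5 with no minimum and 0 at a minimum of 5. The counts with no minimum include genes listed at −9. The median change of the members was 0.36 to 0.67 in CDK2i and −0.04 to 0.42 in EZH2i. Over all genes, 990 were called in EZH2i against vehicle, against 1621 with equal summed FPKM and 466 with the trend removed. The share of calls that were higher was 28.9% in CDK2i as deposited, 48.7% with centred libraries, 46.1% with equal sums and 17.7% with equal sums without ribosomal protein and mitochondrially encoded genes. In EZH2i it was 66.9%, 35.5%, 88.9% and 71.7%, and in EZH2i against CDK2i 72.9%, 32.8%, 80.1% and 83.9%. The depth leaves CDKN1C, CDKN2A, CDKN2B and CCND2 at 25 fragments or fewer.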

Other observations

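Genes that share a name stem with the members were looked at after their values were seen. CDKN2AIP, which encodes a protein that binds p14ARF, was at 8.91 (vehicle), 2.07 (CDK2i) and 11.6 FPKM (EZH2i). Its log2 change was −2.10 in CDK2i, lower than that of CDKN1B, and 0.38 in EZH2i, and it was called lower in CDK2i against vehicle and higher in EZH2i against CDK2i, where the log2 change was 2.49 against a spread of 0.96. Its paralog CDKN2AIPNL was at 21.2, 24.8 and 15.8 FPKM, with log2 changes of 0.23 and −0.42. CDKN3, a phosphatase that acts on CDKs, was at 40.7, 26.0 and 44.8 FPKM, with log2 changes of −0.65 and 0.14. CCNDBP1, which encodes a protein that binds cyclin D1, was at 7.79, 8.79 and 6.44 FPKM.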
